A study of Homo sapiens with 4 samples.

Results

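The genes described here are those by which epithelial and mesenchymal cell states are usually told apart: the cadherins CDH1 and CDH2, the filament protein vimentin (VIM), the matrix protein fibronectin (FN1), the epithelial surface protein EPCAM, and the transcription factors SNAI1, SNAI2, ZEB1, ZEB2 and TWIST1. They were chosen by name, and every spot whose RefSeq accession mapped to one of these symbols was taken. This gave 10 of the 17721 genes with a symbol on the array, with 14 probes of 41000. FN1 had 3 probes, VIM and TWIST1 had 2 each, and the other genes had 1. RNA was measured in OVSAYO cells, an established human ovarian clear cell carcinoma (CCC) line. Cells were transfected by lipofectamine 2000 with a non-specific negative control siRNA (NS-si) or a pool of siRNAs against Sp1 (Sp1-si), and both were cultured for 40 h according to the labels. They were then kept for 4 h with 0.5 mM CoCl2 or were labelled as not exposed. CoCl2 is used in place of low oxygen because it stabilises the hypoxia-inducible factors (HIFs), and the study asked which genes respond to it in a manner that depends on Sp1. Below, control cells are NS-si cells and silenced cells are Sp1-si cells, and the control array is that of NS-si cells without CoCl2. There was 1 array for each of the 4 conditions, so no difference has a replicate check, no test between conditions was run, and every value below describes these 4 arrays.

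Epithelial cells are held together by CDH1 (E-cadherin), which joins neighbouring cells at adherens junctions and is anchored inside the cell by catenins. In epithelial-mesenchymal transition (EMT), CDH1 is lost while CDH2 (N-cadherin), VIM and FN1 are gained, and repressors of the SNAI and ZEB families bind E-box motifs in the CDH1 promoter. Carcinomas can hold features of both states at once. Sp1 is a ubiquitous zinc finger protein that binds GC boxes, and many promoters without a TATA box carry such sites.

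Of the 10 genes, the RefSeq promoter table (GRCh38.p14) has CDH2, VIM, FN1, ZEB1 and ZEB2. The 250 bases before the start site are shown for the 3 whose signals were measured on all 4 arrays, since the siRNA was directed at a factor that binds GC boxes. Each is written 5′ to 3′ on the strand of the gene, with matches to the GC box (GGGCGG on either strand) in capitals. VIM is at chr10:17227991-17228240 on the plus strand, CDH2 at chr18:28177131-28177380 on the minus strand and FN1 at chr2:215436069-215436318 on the minus strand.
VIM: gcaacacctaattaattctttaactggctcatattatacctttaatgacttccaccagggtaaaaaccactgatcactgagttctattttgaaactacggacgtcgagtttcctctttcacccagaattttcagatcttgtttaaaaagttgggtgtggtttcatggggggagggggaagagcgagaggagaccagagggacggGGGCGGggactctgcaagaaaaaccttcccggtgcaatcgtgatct
CDH2: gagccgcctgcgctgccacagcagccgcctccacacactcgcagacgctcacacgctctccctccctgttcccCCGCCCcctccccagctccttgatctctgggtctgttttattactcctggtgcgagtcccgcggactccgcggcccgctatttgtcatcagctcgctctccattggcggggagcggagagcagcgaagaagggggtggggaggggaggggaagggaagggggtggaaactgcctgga
FN1: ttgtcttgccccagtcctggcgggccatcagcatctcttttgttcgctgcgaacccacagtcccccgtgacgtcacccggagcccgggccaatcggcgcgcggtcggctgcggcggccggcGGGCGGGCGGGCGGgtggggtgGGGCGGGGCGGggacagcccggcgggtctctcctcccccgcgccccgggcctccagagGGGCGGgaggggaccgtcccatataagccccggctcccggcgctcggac

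Counted from the start site, the VIM stretch had 1 match, at position -46, and the CDH2 stretch had 1 match on the other strand, at position -177. CDH2 has a second promoter entry, which held none. The FN1 stretch had 6 matches, several of them overlapping, and 6 or more were found in 2.22% of all 35116 promoters of the table. A single match is common, since 42.6% of all promoters held at least 1 in these 250 bases. The E-box CACCTG was in none of the 3 stretches and in 17.5% of all promoters. Of the hypoxia response element cores, ACGTG was in none of the 3 and in 18.5% of all promoters, and GCGTG was in the CDH2 stretch alone and in 32.2% of all promoters. These are matches of letters on both strands and do not show that a factor binds there.

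Signals are the processed, background-subtracted brightness of a probe in arbitrary units. They are not scaled between arrays, so they compare only roughly between arrays, and for the same probe only. Ratios are differences of log2 signals after each array was set to its 75th percentile, which was 977 to 1285 signal units. The error given with a ratio is the SD between spots of the ratio, from the probe's own 10 spots where it had them (CDH1 and 1 FN1 probe) and otherwise from 50 probes of like signal with 10 spots. It covers technical error within the arrays and not the spread between cultures. Of 41000 probes, 30994 to 32433 were well above background on an array, and no spot was saturated. SP1 was well below its control level on both arrays labelled Sp1-si, with signals of 553 on the control array, 39.2 after silencing, 429 after CoCl2 and 38.7 after both. VEGFA, a HIF target, was higher with CoCl2 in both pairs, at 1469, 403, 6344 and 3422 in the same order. All 5 markers read for this tumour type (PAX8, NAPSA, KRT7, KRT8 and KRT18) were well above background on the 4 arrays, although the log2 ratio of NAPSA, silenced to control without CoCl2, was -2.33.

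**Figure D1:**
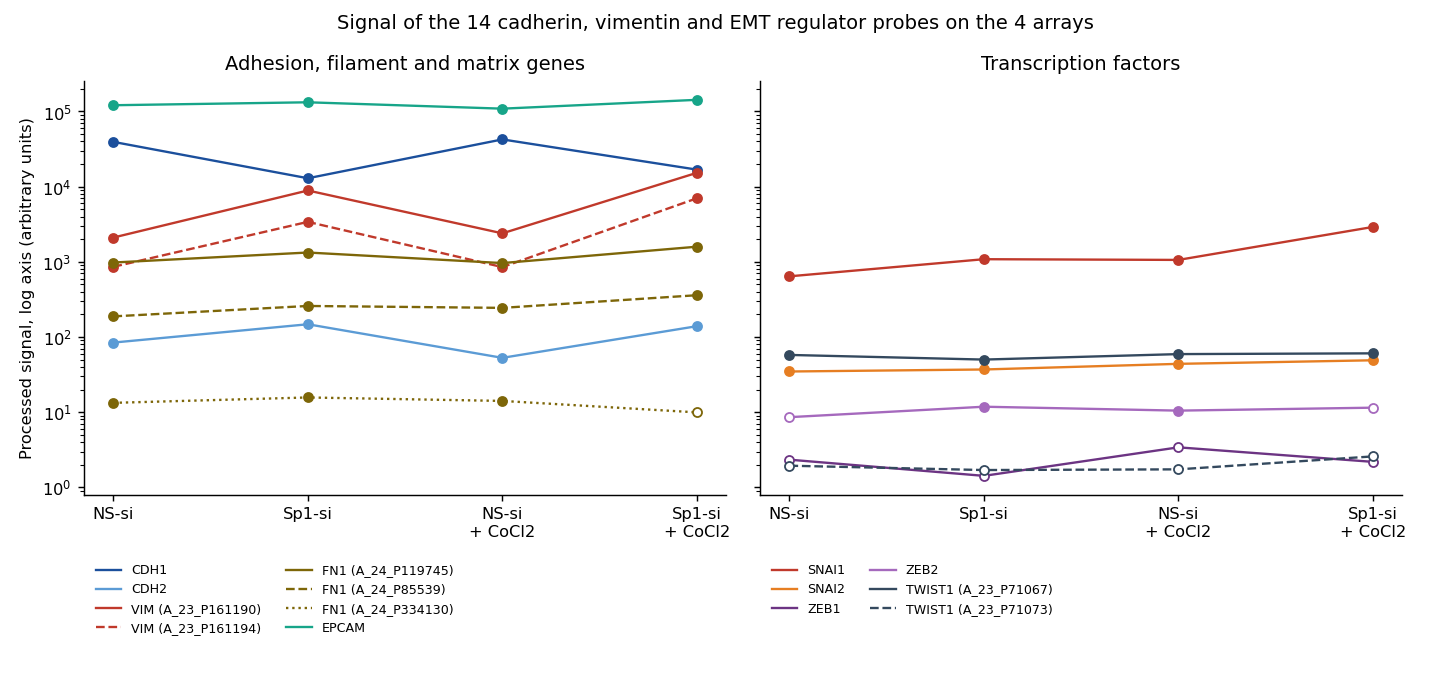
Processed signal of each of the 14 probes on the 4 arrays, on a log axis. Filled points were well above background and open points were not; the lines only join the values of one probe. CDH1 dips and both VIM probes peak on the 2 Sp1-si arrays, while EPCAM is nearly level.

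Among the adhesion genes, CDH1 was the member with the lower signal in Sp1-silenced cells. Its probe read 39380 on the control array, 12931 after silencing, 42491 after CoCl2 and 16848 after both. Both Sp1-si arrays were low and both NS-si arrays were high, and CoCl2 moved neither level far. The log2 ratio of Sp1-si to NS-si was -1.55 (SD between spots 0.05) without CoCl2, 2.93-fold lower, and -1.73 (SD 0.04) with CoCl2, 3.32-fold lower. Only 643 of 33024 probes with a ratio or bound were as low or lower without CoCl2, and 738 of 32501 with it. The 10 spots spread from 36458 to 41023 in NS-si and from 12304 to 13503 in Sp1-si cells. With CoCl2 they spread from 38556 to 44643 in NS-si cells and from 16649 to 17048 over the 8 spots kept in Sp1-si cells. The spots of NS-si and Sp1-si arrays thus did not overlap. How many of the 264 probes with 10 spots also separate was not counted, so this is not read as particular to CDH1. In bulk RNA, fewer cells that express a gene and less of its RNA per cell cannot be told apart.

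The CDH1 ratio for CoCl2 was 0.34 (SD 0.03) in control cells and 0.16 (SD 0.03) in silenced cells, positive under each scaling tried and well short of a 2-fold change in both.

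**Figure D2:**
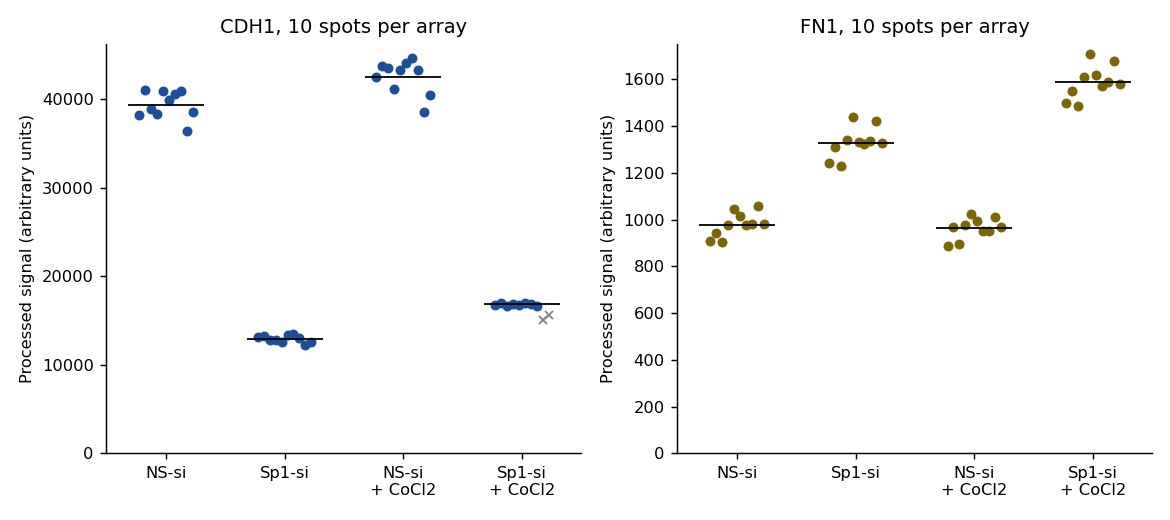
Processed signal of each spot of the 2 probes printed 10 times per array, CDH1 and FN1, on linear axes that start at 0. Horizontal lines are the geometric means of the kept spots, and crosses are spots the scanner software flagged as outliers, which were left out. CDH1 spots fall into a high NS-si and a low Sp1-si range, and FN1 spots are higher on both Sp1-si arrays.

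CDH2, the cadherin of neural and mesenchymal cells, had the opposite order and a dim signal. Its signal was 84.4 on the control array, 148 after silencing, 52.8 after CoCl2 and 139 after both, with a single spot per array. Both Sp1-si arrays were above both NS-si arrays. The log2 ratio of Sp1-si to NS-si was 0.86 (SD 0.07) without CoCl2 and 1.0 (SD 0.10) with it, 1.82-fold and 2.0-fold higher. The second of these lay at the limit of 2-fold used here, and it was 0.36 when the background was corrected by normexp, so the size of the CDH2 ratio rests on how a dim spot is corrected. With CoCl2, CDH2 was lower in both backgrounds, at -0.45 (SD 0.10) in control cells and -0.31 (SD 0.07) in silenced cells. The first of these was -0.05 with normexp, within the SD between spots, and the second was -0.09 with no scaling, so no direction with CoCl2 is drawn for CDH2.

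EPCAM, an adhesion protein of simple epithelia and most carcinomas, differed least. It read 121009 on the control array, 132442 after silencing, 108957 after CoCl2 and 142784 after both. The 4 values lay within 0.18 on the log2 scale after scaling. The log2 ratio of Sp1-si to NS-si was 0.18 (SD 0.02) without CoCl2 and -0.01 (SD 0.02) with it, and the second was 0.15 with quantile normalization and 0.39 with no scaling. A lower CDH1 signal was therefore not accompanied by a lower EPCAM signal on the same arrays.

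VIM, the intermediate filament protein of mesenchymal cells, had the highest ratios of the set, on both of its probes. Probe A_23_P161190 read 2104 on the control array, 8893 after silencing, 2392 after CoCl2 and 15270 after both. Probe A_23_P161194 read 859, 3402, 851 and 6999 in the same order. Each probe was higher on both Sp1-si arrays than on either NS-si array, and was highest where silencing and CoCl2 were combined. Without CoCl2 the log2 ratio of Sp1-si to NS-si was 2.13 (SD 0.03) and 2.04 (SD 0.03), or 4.39-fold and 4.11-fold. With CoCl2 it was 2.28 (SD 0.03) and 2.64 (SD 0.03), or 4.85-fold and 6.25-fold. The probes ranked high over the whole array, since only 244 and 274 of 33024 probes were as high or higher without CoCl2, and 196 and 107 of 32501 with it.

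The response of VIM to CoCl2 was smaller, and the probes differed in it. In Sp1-si cells the ratio was 0.56 (SD 0.03) for A_23_P161190 and 0.82 (SD 0.03) for A_23_P161194. In NS-si cells it was 0.41 (SD 0.03) and 0.21 (SD 0.04), and the latter was -0.01 with no scaling between arrays.

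FN1, a glycoprotein of the extracellular matrix that cells grip through integrins, was moderately higher in Sp1-si cells. The probe with 10 spots, A_24_P119745, read 979 on the control array, 1330 after silencing, 962 after CoCl2 and 1589 after both. Its spots spread from 905 to 1061, from 1231 to 1439, from 888 to 1024 and from 1487 to 1711 in that order. Both Sp1-si arrays thus lay above both NS-si arrays at every spot, though spots are copies on an array and not replicates of a condition. How many other probes with 10 spots separate in this way was not counted. The log2 ratio of Sp1-si to NS-si was 0.50 (SD 0.02) without CoCl2 and 0.33 (SD 0.02) with it, 1.41-fold and 1.26-fold. Such ratios were common, since 5124 of 33024 probes were as high or higher without CoCl2, and 8095 of 32501 with it.

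Probe A_24_P85539 of FN1 read 188, 259, 244 and 360 in the same order, and its ratios were 0.51 (SD 0.06) without and 0.16 (SD 0.05) with CoCl2. Probe A_24_P334130 is annotated to a different FN1 transcript and was close to background, at 13.3, 15.7, 14.1 and 9.94, the last of them not well above background. For it the ratio without CoCl2 was 0.29 (SD 0.22). With CoCl2 the ratio after silencing was a bound of at most -0.86 (SD 0.27), opposite in sign to the other FN1 probes. The bound shrank to as little as -0.43 among the alternatives, and no direction is given for this dim probe. The mean over the 3 probes with CoCl2 was -0.14 because this dim probe was included. CoCl2 gave 0.20 (SD 0.03) in control cells and 0.03 (SD 0.01) in silenced cells for A_24_P119745, of which the first was -0.02 with no scaling and the second was -0.02 in the deposited value table. For A_24_P85539 the same ratios were 0.60 (SD 0.06) and 0.25 (SD 0.05).

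Among the transcription factors, SNAI1 (Snail) was the one with a clear signal and clear differences. It read 642 on the control array, 1084 after silencing, 1060 after CoCl2 and 2910 after both. The control array was lowest, silencing and CoCl2 alone gave nearly the same signal, and the array with both was highest. The log2 ratio for CoCl2 was 0.95 (SD 0.04) in control cells and 1.2 (SD 0.03) in silenced cells, 1.93-fold and 2.30-fold. The log2 ratio of Sp1-si to NS-si was 0.81 (SD 0.03) without CoCl2 and 1.06 (SD 0.03) with it, 1.75-fold and 2.09-fold, and the latter was 0.95 with normexp. Over the whole array, 1659 of 32849 probes had as high a CoCl2 ratio in NS-si cells, and 816 of 32302 in Sp1-si cells. For Sp1-si to NS-si, 2661 of 33024 probes had as high a ratio without CoCl2, and 1831 of 32501 with it.

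SNAI2 (Slug), the close relative of SNAI1, was dim and showed no such pattern. It read 34.8 on the control array, 37.0 after silencing, 44.0 after CoCl2 and 49.0 after both. Both CoCl2 arrays were above both arrays without it before scaling. The CoCl2 ratio was 0.56 (SD 0.13) in control cells and 0.18 (SD 0.12) in silenced cells, the second of which was -0.02 with normexp. The ratio of Sp1-si to NS-si was 0.14 (SD 0.13) without CoCl2 and -0.24 (SD 0.13) with it, and the latter turned to 0.16 with no scaling.

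TWIST1, a basic helix-loop-helix factor, was measured by A_23_P71067 at 57.8 on the control array, 50.1 after silencing, 59.2 after CoCl2 and 60.6 after both. These values were close to one another before scaling. The ratio of Sp1-si to NS-si was -0.15 (SD 0.11) without CoCl2 and -0.36 (SD 0.11) with it, the second being 0.03 with no scaling. The CoCl2 ratio was 0.26 (SD 0.10) in control cells and 0.05 (SD 0.11) in silenced cells, and the latter was -0.15 with normexp and below 0.01 in size in the deposited value table. The other TWIST1 probe, A_23_P71073, read 1.70 to 2.58 and was well above background on no array.

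The ZEB factors, zinc finger homeodomain repressors of CDH1, gave little or no signal. The ZEB1 probe read 2.34 on the control array, 1.42 after silencing, 3.41 after CoCl2 and 2.18 after both, and it was well above background on no array. ZEB2 read 8.59, 11.8, 10.49 and 11.5 in that order and was well above background on the Sp1-si array and on the NS-si array with CoCl2. For ZEB2 this gives log2 ratios that are bounds of at least 0.51 for CoCl2 in control cells and at least 0.52 for silencing without CoCl2, and of at most -0.27 in the comparisons that hold the array with both. The SD between spots at this signal was 0.26 to 0.36, about as large as the bounds themselves, and no direction is given for ZEB2.

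**Figure D3:**
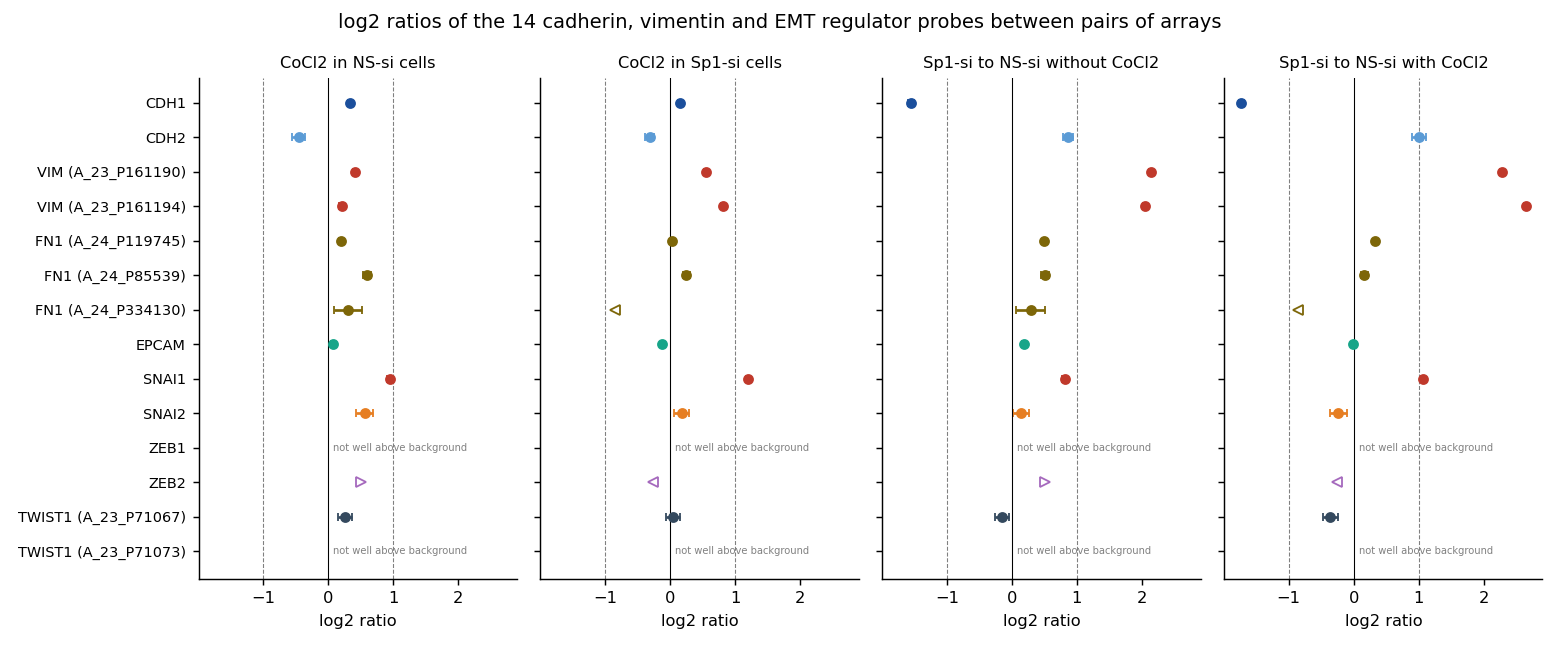
log2 ratios of the 14 probes in the 4 comparisons, with CoCl2 over without it in the left panels and Sp1-si over NS-si in the right panels. Error bars are the SD between spots, triangles are bounds that point in the direction of the true ratio, and dashed lines mark 2-fold. CDH1 lies left and both VIM probes lie right of the 2-fold lines in both Sp1-si panels, and no probe passes them for CoCl2 in NS-si cells.

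Of the 14 probes, 10 (8 genes) were well above background on all 4 arrays, 2 on some and 2 on none. Over the whole array, 30234 of 41000 probes were so on all 4. A ratio or bound was available for 12 of the 14 in each comparison. Without CoCl2, 2 of the 12 were at least 2-fold higher after silencing (both VIM) against 5.5% of all probes, and 1 was at least 2-fold lower (CDH1) against 5.88%, together 3 against 11.4%. With CoCl2, 4 of 12 were higher (both VIM, CDH2 and SNAI1) against 6.31% of all probes, and 1 was lower (CDH1) against 9.64%, together 5 against 15.9%. The median log2 ratio of the probes measured on both arrays was 0.50 without CoCl2 against -0.02 over all probes, and 0.25 with CoCl2 against -0.06. These medians, and those for CoCl2 in the next paragraph, count probes and not genes. VIM and FN1 had several probes, so they weigh more than genes with 1. The sign of the ratio of Sp1-si to NS-si was the same without and with CoCl2 for 8 of the 10 probes (8 genes) measured throughout. The exceptions were EPCAM and SNAI2. For TWIST1 the ratio with CoCl2 turned positive with no scaling. The share of all probes with the same sign was not counted, so this is not read as particular to these genes.

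For CoCl2 itself few of these probes passed 2-fold, as did few of all probes, so the counts are not read as particular to these genes. In NS-si cells none of 12 passed in either direction, against 4.53% of all probes upward, 4.34% downward and 8.88% in all, and SNAI1 came nearest at 0.95. In Sp1-si cells SNAI1 passed upward against 3.72% of all probes and none passed downward against 6.17%, together 1 against 9.89%. The median over the measured probes was 0.31 in NS-si cells against 0.02 over all probes, and 0.17 in Sp1-si cells against -0.01. All but EPCAM among the 10 probes measured throughout had the same sign in NS-si and Sp1-si cells, with CDH2 negative and the others positive. Some of these values, as given above, approach or pass 0 under another scaling or background correction. Here too the share of all probes with the same sign was not counted.

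**Figure D4:**
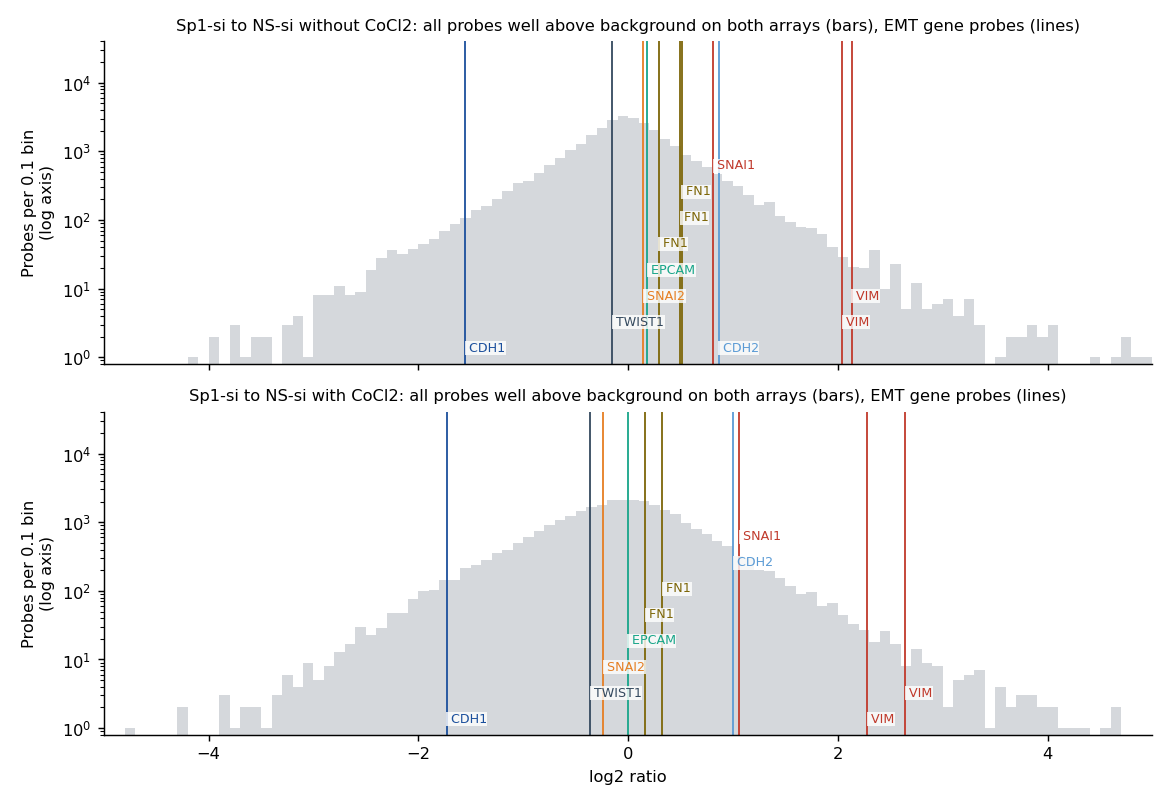
Distribution of the log2 ratio of Sp1-si to NS-si over all probes well above background on both arrays (grey bars, log axis), without CoCl2 above and with CoCl2 below, with the probes of the EMT genes as labelled lines. Both VIM lines stand in the far right of the bars and CDH1 toward the left, while the other lines lie between -0.36 and 1.06.

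The difference between the CoCl2 ratios, silenced minus control cells, was under 1 on the log2 scale for all 10 probes measured on the 4 arrays, against 1.05% of all probes at or above 1, 4.87% at or below -1 and 5.91% in all. The largest was that of VIM A_23_P161194, at 0.60 (SD 0.05), whereas A_23_P161190 gave 0.15 (SD 0.04). SNAI1 differed by 0.25 (SD 0.05) and CDH2 by 0.14 (SD 0.12), and these 4 probes had positive differences. The remaining 6 had negative differences, of -0.17 (SD 0.03) and -0.35 (SD 0.08) for the FN1 probes, -0.18 (SD 0.05) for CDH1, -0.19 (SD 0.04) for EPCAM, -0.21 (SD 0.15) for TWIST1 and -0.38 (SD 0.17) for SNAI2. With no scaling between arrays each of these 6 turned positive, and CDH2 turned to -0.23 with normexp, so the sign held under all the alternatives tried for VIM and SNAI1 only.

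The genes around these members were followed in lists. In each list a gene was read by its probe of highest mean signal, and a gene was named where that probe was at least 2-fold different in some comparison. Values given for these genes without a unit are log2 ratios. Among 6 other cadherins, CDH3 (P-cadherin) and CDH6 (K-cadherin) were measured on all arrays, and CDH5, CDH11 and CDH13 were well above background on none. CDH3 read 1028 on the control array, 2005 after silencing, 1113 after CoCl2 and 2873 after both, higher on both Sp1-si arrays as CDH2 was. Its ratios of Sp1-si to NS-si were 1.02 and 0.97, and whether each passed 2-fold changed with the scaling. CDH6 was lower with CoCl2 by contrast, reading 721, 708, 135 and 292, with ratios of -2.19 in control cells and -1.5 in silenced cells, and its other probe gave -2.27 and -1.5. Silencing gave CDH6 a ratio of 0.03 without CoCl2 and 0.72 with it. Of the 3 genes of this list with a ratio, 1 was at least 2-fold higher after silencing without CoCl2 (5.5% of all probes). For CoCl2, 1 of 3 was at least 2-fold lower in control cells (4.34% of all probes) and in silenced cells (6.17%).

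The junction partners of the cadherins were well above background on all arrays for 9 of 9 genes, as were 30234 of all 41000 probes. After silencing 1 of 9 was at least 2-fold higher, without CoCl2 (5.5% of all probes) and with it (6.31%). None was at least 2-fold lower (5.88% and 9.64%). DSP (desmoplakin, which ties desmosomes to keratin) read 14072 on the control array, 43509 after silencing, 11238 after CoCl2 and 58722 after both. It was higher in Sp1-si cells by 1.68 without and 1.99 with CoCl2. The catenins and the other partners did not share this, since the median ratio of the 9 genes was -0.45 without CoCl2 and -0.33 with it. JUP (plakoglobin) and OCLN (occludin), the next in size without CoCl2, were at -0.95 and -0.94. CTNNB1 (beta-catenin) was at 0.07.

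Of 12 measured regulators and markers of the epithelial state, 3 were at least 2-fold lower after silencing without CoCl2 (5.88% of all probes) and none was higher (5.5%). These were ESRP1 (-1.37) and ESRP2 (-1.06), splicing regulators of epithelial cells, and OVOL1 (-1.39), a zinc finger factor that favours the epithelial state. With CoCl2, ESRP1 (-1.45) and ESRP2 (-1.44) were lower and ELF3, an epithelial ETS factor, was higher (1.13), beside 9.64% and 6.31% of all probes. ESRP1 read 757 on the control array, 283 after silencing, 497 after CoCl2 and 240 after both, and ESRP2 read 5519, 2554, 4473 and 2165, the same order of silenced below control as in CDH1. OVOL1 was also higher with CoCl2, by 2.65 in control cells and 3.26 in silenced cells, and ELF3 by 0.60 and 1.23. The median over the list was -0.38 without and -0.33 with CoCl2. GRHL2, RAB25, MUC1, CRB3 and LLGL2 were within 2-fold in all comparisons.

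Of 10 other transcription factors linked to EMT, 7 were measured on all arrays. By the brightest probe, 3 of 8 were at least 2-fold higher with CoCl2 in control cells (4.53% of all probes) and 1 of 7 in silenced cells (3.72%). After silencing 1 was higher, of 7 without CoCl2 (5.5%) and of 8 with it (6.31%). TCF3 (E2A, a partner and repressor at E-boxes) was higher in Sp1-si cells, by 1.31 without and 1.11 with CoCl2, and its second probe gave 0.65 and 0.67. ETS1 was higher with CoCl2, by 1.84 in control cells and 2.11 in silenced cells, and 2 further probes gave 1.69 to 2.38. For Sp1-si against NS-si the ETS1 probes disagreed in size, at -0.47, -1.38 and -0.73 without CoCl2 and at -0.19, -1.27 and -1.29 with it, the brightest probe first. KLF8 passed 2-fold for CoCl2 in control cells at 1.01, but its other probe gave 0.12. For silencing the KLF8 probes differed too, at 0.65 and 0.98 without CoCl2 and at -0.20 and 1.18 with it. GSC was well above background only on the NS-si array with CoCl2, at 15.0, at least 2.38-fold above the NS-si array. Its log2 ratio for CoCl2 was 0.34 with normexp, and its other probe was well above background on no array. TWIST2 and SNAI3 were within 2-fold, with SNAI3 at 0.96 and 0.89 for Sp1-si against NS-si.

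Mesenchymal and matrix-contact genes differed in both directions after silencing. Of 9 measured without CoCl2, 2 were at least 2-fold higher (5.5% of all probes) and 2 lower (5.88%), with a median of 0.05. With CoCl2, 1 of 11 was higher (6.31%) and 1 was lower (9.64%), with a median of 0.21. AXL, a receptor tyrosine kinase, read 1815 on the control array, 4626 after silencing, 1804 after CoCl2 and 8029 after both, and was higher in Sp1-si cells by 1.40 and 1.76. TAGLN (transgelin, an actin-binding protein) was at 1.07 and 0.79, and its other probe at 1.45 and 0.98. The first of these was 0.89 with normexp and no longer passed. The log2 ratios of ACTA2 (smooth muscle actin) were -1.19 without CoCl2 and -1.05 with it, and those of the hyaluronan receptor CD44 were -1.09 and -0.99. The ACTA2 ratio with CoCl2 no longer passed 2-fold with quantile normalization (-0.99), median scaling (-0.94), no scaling (-0.65), the deposited value table (-0.99) or normexp (-0.89). SPARC, THY1, S100A4, TNC and FBN1 were within 2-fold throughout, and FAP and MYL9 were well above background on no array.

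**Figure D5:**
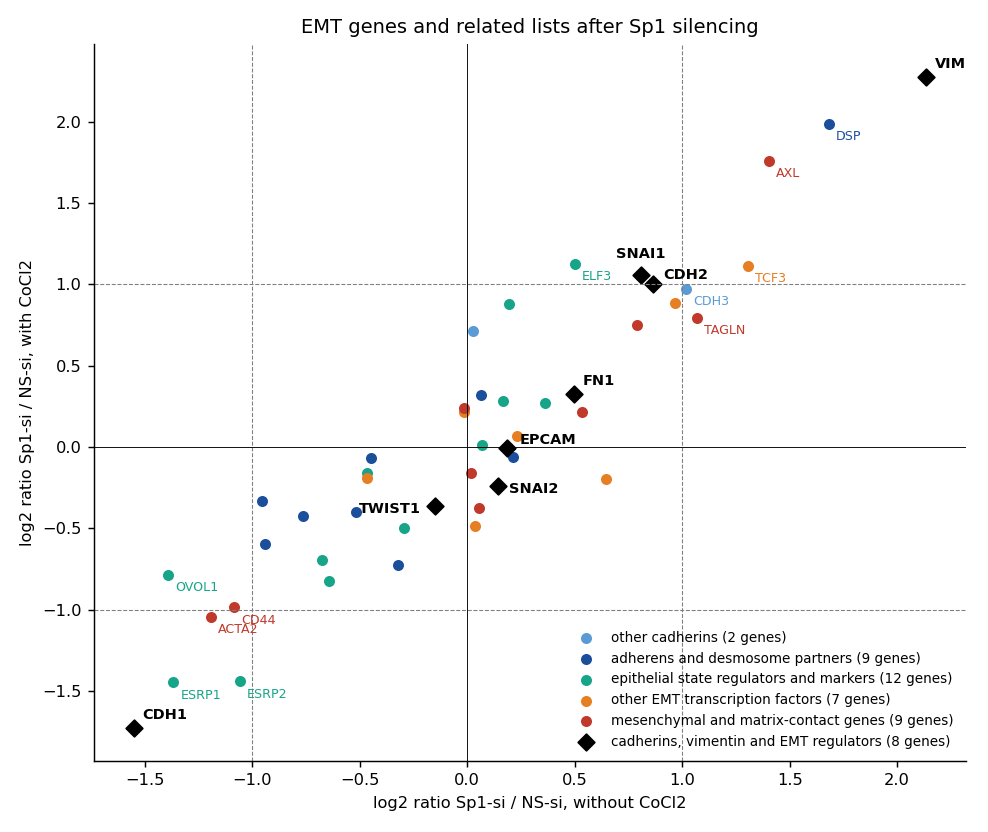
log2 ratio of Sp1-si to NS-si without CoCl2 (x axis) and with CoCl2 (y axis) for genes well above background on all 4 arrays, 1 probe per gene. Diamonds are the cadherins, vimentin and EMT regulators, circles are 5 lists of related genes, and dashed lines mark 2-fold. VIM, DSP, AXL and TCF3 stand at the upper right. CDH1, ESRP1 and ESRP2 stand at the lower left, as do ACTA2 and CD44 of the mesenchymal list.

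VIM, FN1 and CDH2 are also made by stromal cells, so markers of other cell types were read on the same arrays. Of 5 fibroblast markers 4 had a probe, and their summed signal was 877 and 650 on the NS-si arrays and 376 and 442 on the Sp1-si arrays, of which LUM alone gave 766 on the control array. COL1A2 (77.5 in control cells and 8.69 in silenced cells) and LUM (766 and 350) were at least 2-fold lower in Sp1-si cells without CoCl2. These were 2 of the 3 genes with a ratio, against 5.88% of all probes, and with normexp neither passed, at -0.96 and -0.89. DCN was at -0.88, and PDGFRB was well above background on no array. With CoCl2, 1 of 3 was at least 2-fold lower after silencing (9.64% of all probes), with COL1A2 at -2.92, LUM at -0.85 and DCN at -0.60. The leukocyte marker PTPRC and the endothelial marker PECAM1 were well above background on no array, and VWF read 34.4 to 52.1 with 1 of its 2 probes. A second COL1A2 probe was well above background on no array. The RNA came from cultures of an established cell line, and the part of other cell types in the VIM, FN1 and CDH2 ratios was not tested.

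The probes of other genes whose 4 values were most like those of VIM A_23_P161194, which had the widest range of the members, were sought among 20924 probes by the distance between log2 values after centring. The nearest were TLN1 (talin, distance 0.14), L1CAM (a neural adhesion molecule, 0.23), KATNAL1 (a microtubule-severing enzyme, 0.33), GPC3 (glypican 3, 0.34) and MTURN (0.35). TLN1 read 102 on the control array, 449 after silencing, 108 after CoCl2 and 818 after both, and L1CAM read 94.2, 466, 101 and 832. Other probes were higher in Sp1-si cells without CoCl2 as well for TLN1 (2.42) and L1CAM (1.68), but the other probe of KATNAL1 gave 0.36. The likeness rests on 4 arrays.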

How the data were processed

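RNA of 4 cultures of OVSAYO cells was labelled with Cy3 and hybridised to 4 single-colour Agilent 4x44K human arrays, 1 per condition. The authors deposited the intensities from Agilent Feature Extraction 10.5.1.1. Its processed signals are background-subtracted, detrended, raised to a small surrogate value where a spot did not exceed background, and not normalized between arrays. The deposited value table equals the processed signal times 1 constant per array (1.25 to 1.58), with the reason for the constant not given in the sources used here. The labels give 40 h of culture after transfection, and a legend of the paper a shorter time.

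Control spots and outlier spots were dropped, processed signals were turned to log2, each probe's spots were averaged, and the array's 75th percentile was subtracted. A probe was well above background where at least 50% of its kept spots were. Where only 1 side was, the ratio is a bound against the higher of the dim side's own signal and the dimmest probe there that was well above background (6.72 to 10.2), and where neither was there is no ratio. Probes at a log2 ratio of 1 or more in size (2-fold) were counted. Symbols came from RefSeq accessions (28463 of 29877 spots with one matched; 26222 probes with a symbol). Named are the 10 genes, SP1 and VEGFA, genes of the lists whose brightest probe passed 2-fold in a comparison, and the 5 probes most like the widest-ranging member probe; the other genes named from the lists were chosen after their values were seen. CD24 and COL1A1, of the lists, had no matched probe. A further 2 list genes are not reported here and were left out of the lists. Motifs were searched in 250 upstream bases of RefSeq promoters. Members and lists were chosen with earlier results of these data known. With 1 array per condition no test was run.

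The 12 alternatives were 5 other scalings or sources (quantile normalization, median, none, percentile over the probes detected on every array, deposited value table), normexp with offset 50, outlier spots kept, 2 filters on dim probes, a log2 limit of 0.5, and 1 probe or the mean per gene. Normexp was planned on the mean signal but was run on the median signal, the column used here. The number of arrays limits the precision. Python 3.11.15, pandas 2.3.3, R 4.3.3 and limma 3.58.1 were used, and the scripts were tested on simulated data.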

Additional observations from a re-analysis of the deposited data

Results flagged for a closer look

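For EPCAM the CoCl2 ratio was positive in NS-si cells (0.07) and negative in Sp1-si cells (-0.12), each over 2 times the SD between spots from 0, a difference of -0.19. For DSP the signs were the other way, -0.10 in control cells (NS-si) and 0.21 after silencing, which differ by 0.31. Both were singled out because the 2 pairs of arrays moved in opposite directions, and neither difference was tested, since each rests on 1 array per condition. With no scaling between arrays the EPCAM ratios were -0.15 and 0.11, which turns the difference to 0.26, and with quantile normalization the difference was 0.001 or less in size. The DSP ratios kept their signs under each scaling tried.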

How the results depend on the processing

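No paired analysis was possible because each condition had only 1 array. An additive fit of siRNA and CoCl2 over the 4 arrays, which would take their interaction as error, was not run. The counts of probes past the limit were 0 and 1 for CoCl2 in NS-si and Sp1-si cells, 3 and 5 for Sp1-si against NS-si without and with CoCl2, and 0 for the difference of the CoCl2 ratios. With no scaling between arrays the count for CoCl2 in Sp1-si cells was 2 and that for the difference was 1, in both cases through VIM A_23_P161194 (1.04 and 1.05), and the median of all probes, bounds included, shifted from -0.01 to 0.44 for the difference and from -0.08 to 0.32 for Sp1-si against NS-si with CoCl2. With normexp the count for Sp1-si against NS-si with CoCl2 was 3, as CDH2 (0.36) and SNAI1 (0.95) no longer passed, and the median of all probes was -0.18. With a log2 limit of 0.5 the counts were 4 for CoCl2 in NS-si cells, 4 in Sp1-si cells, 7 for Sp1-si against NS-si without CoCl2 and 1 for the difference. The other counts stayed within 1.5 times of these values, and no called ratio of the 10 genes changed sign. Across the alternatives the ratio of Sp1-si to NS-si was -1.61 to -1.51 without and -1.76 to -1.33 with CoCl2 for CDH1, 2.08 to 2.17 and 2.23 to 2.67 for VIM A_23_P161190, and 1.96 to 2.08 and 2.56 to 3.04 for VIM A_23_P161194. Of the single values of the 10 genes under the alternatives, 386 moved by less than the SD between spots and 170 by more. The 386 include values that could not move. The 2 filters on dim probes leave a ratio measured on both arrays as it was, and the mean per gene does so for a gene with 1 probe. Signals near background limit ZEB1, ZEB2, SNAI2, TWIST1 and 1 FN1 probe.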
